A study of Marchantia polymorpha with 6 samples.

Results

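The hAT transposons of the liverwort Marchantia polymorpha, written as the code DTA in its element annotation, are described here on the 8 autosomes of the male reference line Tak-1. Members were taken from the authors' element annotation, which was made with EDTA, a pipeline that finds and names transposable elements. Every entry of class DNA and superfamily code DTA on chromosomes 1 to 8 was taken. The rule gave 1960 copies among the 89262 element copies of all kinds in the annotation, and among 1997 hAT copies in all. The other hAT copies were 31 on V, the male sex chromosome, and 6 on unplaced sequences.

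hAT elements are cut-and-paste transposons named after hobo of the fruit fly, Ac of maize and Tam3 of snapdragon. A complete element codes for a transposase that recognises short inverted repeats at its own ends, excises the element and inserts it elsewhere, while shortened copies move only with a transposase made by another copy. Very short relatives that keep little more than the ends are called MITEs, miniature inverted-repeat transposable elements, and the annotation lists those related to hAT as a class of their own. In plants, CG methylation is one of the marks that keep transposons silent, and MpMET is the liverwort counterpart of the enzyme that maintains it.

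The series set Mpmet-3, a mutant in MpMET, against the Tak-1 wild type by RNA-seq of poly(A) RNA from thalli, the flat haploid plant body. Each group had 3 libraries, and both were sampled at 14 days. The deposited files used here are the gene annotation and the element annotation, which hold positions and no value of any library. Expression in Mpmet-3 against Tak-1 wild type was therefore not analysed here, the depth of the libraries is unknown, and the comparisons below describe the wild-type genome rather than the mutation. All coordinates are those of the MpTak1 v5.1 revision 2 assembly.

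Together the autosomal hAT copies made up 2.48% of the element copies on the autosomes and 2.02% of the bp that elements cover there. They covered 0.999 Mb of the 208 Mb of autosomal sequence, or 0.480%. Copies were short, from 80 to 4636 bp with a median of 281 bp. Of the 1960 copies, 685 (34.9%) were under 200 bp and 74 (3.78%) were 2000 bp or longer.

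The copies carried 42 family names from the element library, and 6 further copies were named only by their own position. The 12 families with the most copies held 1309 copies (66.8%), and the 26 families with 20 copies or more held 1819. Of these 26 families, 22 had copies on every autosome. The largest, TE_00001226, had 222 copies with a median length of 245 bp. TE_00000117 followed with 176 copies, TE_00000686 with 122 and TE_00000130 with 115. TE_00000788 had fewer copies, 107, but came first by sequence, with 102177 bp or 10.2% of the summed length of hAT copies. The next families were TE_00001177 with 102 copies, TE_00000018 and TE_00000299 with 85 each, TE_00001268 with 80, TE_00000550 with 73, TE_00000988 with 72 and TE_00000174 with 70. By length rather than number the order changed, and 8 families held 50.1% of the summed length.

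**Figure D1:**
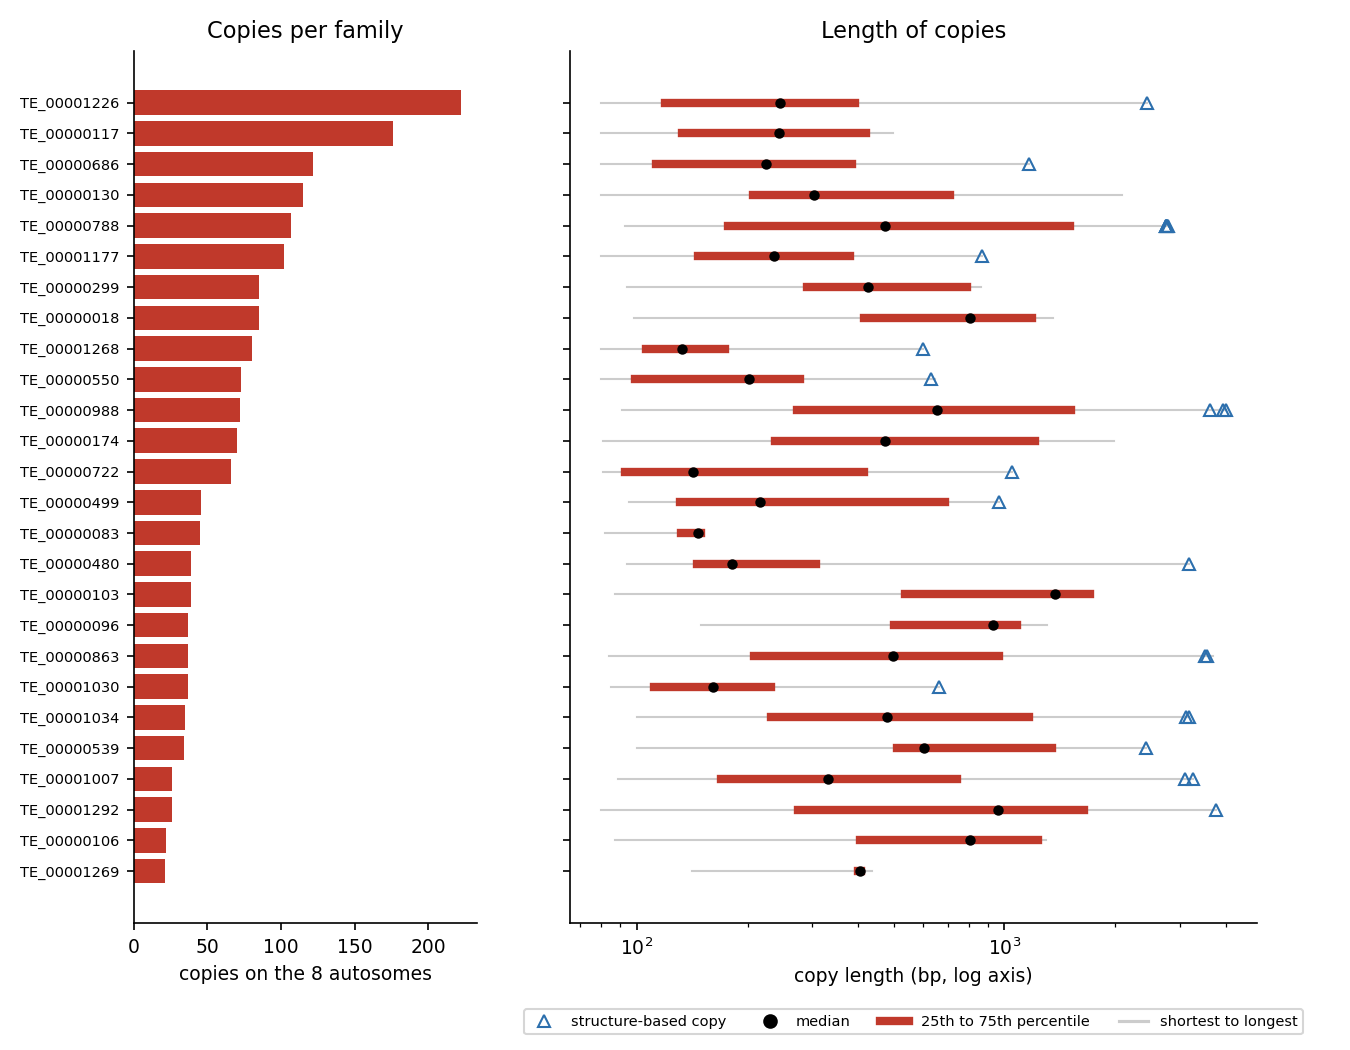
Copies (left, count on the 8 autosomes) and copy length (right, bp on a log axis) of the 26 hAT families with 20 copies or more. Black points are medians, thick bars the 25th to 75th percentile, thin lines the whole range and open triangles structure-based copies. The triangles sit at or near the long end of their families, and TE_00000083 and TE_00001269 have the narrowest bars.

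Families differed in how uniform their copies were. Copies of TE_00000083 were nearly all of one size, with 45 copies of which the middle 50% measured 132 to 149 bp and the longest 151 bp. TE_00001269 had 21 copies with a middle range of 399 to 407 bp. Neither family had a structure-based copy. TE_00001226 ranged from 80 to 2448 bp, and TE_00000103 had the longest median among the 26 families, 1375 bp, while TE_00001268 had the shortest, 132.5 bp. Among smaller families, TE_00000628 had 7 copies with a median of 2265 bp, close to its structure-based copy of 2453 bp.

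EDTA calls a copy either from its structure, meaning a pair of terminal inverted repeats with a target site duplication, or from similarity to a family already in its library. Only 50 of the 1960 autosomal hAT copies were structure-based and 1910 were homology-based. The 50 occupy 49 places, since the TE_00001007 copies at bases 8877664 to 8880917 and 8877715 to 8880815 of chromosome 2 overlap. Structure-based copies had a median of 2756.5 bp and a range of 601 to 4636 bp, and they held 11.01% of the bp covered by hAT. Homology-based copies had a median of 273 bp and reached 3703 bp.

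Per autosome, the median length averaged 2354 ± 894 bp for structure-based copies and 275 ± 21.2 bp for homology-based copies (SD, n = 8 autosomes). The difference of 2079 ± 899 bp was positive on 8 of 8 autosomes (adjusted p = 0.0161, exact 2-sided sign-flip permutation over autosomes). A structure-based call requires both ends of an element, so length is not independent of the call, and with hAT-related MITEs counted as hAT the difference was 120 bp (adjusted exact p = 0.0132). Only chromosome 3 had short structure-based copies throughout, 3 copies of 630 to 976 bp. Here and below, sign-flip tests use 1 value per autosome, p-values are adjusted over the 31 comparisons of the same family unless another number is given, and the smallest p that 8 autosomes allow is 0.00781. Autosomes of one genome are not separate plants, so these p-values speak of chromosomes only.

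Lengths of structure-based copies were unevenly spread. In classes drawn after the lengths were seen, there were 12 copies under 1000 bp, 11 from 1000 to under 2600 bp, 20 from 2600 to 3300 bp and 7 longer than 3300 bp. TE_00000788, the family with the most structure-based copies, had 6 of them on 5 autosomes, all within 2751 to 2777 bp. TE_00000798 had 4 of 2948 to 3028 bp among only 13 copies, and TE_00000988 had 3 of 3618 to 4000 bp. TE_00000766, TE_00000863, TE_00001007 and TE_00001034 had 2 each. The 5 longest structure-based copies were 1 of TE_00000608 with 4636 bp, 3 of TE_00000988 with 4000, 3941 and 3618 bp, and 1 of TE_00001292 with 3757 bp.

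Homology-based copies were mostly a small part of the structure-based length of their own family. In families that have a structure-based copy, 124 of 1208 homology-based copies (10.3%) reached 50% of the longest structure-based copy, and 46 (3.81%) reached 80%. In TE_00001226 the median copy was 10.01% of the structure-based length and no copy of 221 reached 50%. In TE_00000788, 24 of 101 copies reached 50% and 12 reached 80%. TE_00000628 stood at the other end, with 4 of 6 copies at 80% or more. The 5 longest homology-based copies belonged to TE_00000863 (3703 and 3597 bp), TE_00000766 (3298 and 3271 bp) and TE_00001292 (3278 bp), and none of them overlapped a gene.

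As a whole, hAT copies were shorter than those of all other elements. Here and below, that group is the 76919 autosomal copies that are not hAT, so it includes the other DNA transposons and the hAT-related MITEs. Comparisons with these groups are therefore not separate from one another. The median per autosome averaged 283 ± 19.7 bp for hAT and 345 ± 18.6 bp for all other elements, lower on 8 of 8 autosomes (adjusted exact p = 0.0161). The difference of -62.2 bp was -126 bp with copies of at least 200 bp and -155 bp between means. For other DNA transposons it was 267 ± 11.5 bp, a difference of 16.1 bp from hAT that did not pass (adjusted exact p = 0.0727) and that turned to -101 bp (0.0161) when only copies of at least 200 bp were counted in both groups.

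Some short copies lay end to end. Joining copies of one family and strand no more than 100 bp apart reduced the 1960 copies to 1749, of which 177 were made of several parts, and raised the median to 317 bp. The largest number of parts was 4, as in the joined TE_00001292 copy of 3775 bp at bases 3729098 to 3732872 of chromosome 1. Of all hAT copies, 1102 (56.2%) had another hAT copy within 1 kb, against 58.0% of the 12275 other DNA transposon copies and 23.6% of the 1156 hAT-related MITE copies, each counted within its own group. These shares also depend on how many copies a group has.

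The autosomes carried hAT at similar densities. Copies per Mb ranged from 7.48 on chromosome 3 to 11.2 on chromosome 4, and cover ranged from 0.347% to 0.620% on the same chromosomes. In 211 windows of 1 Mb the median was 9 copies. The fullest window, from 17 to 18 Mb of chromosome 1, had 23 copies of 9 families, and 2 windows had none. The median distance of copies from the nearer chromosome end, as a percent of chromosome length, averaged 27.4 ± 1.88 for hAT, 27.3 ± 1.78 for other DNA transposons, 25.6 ± 2.57 for hAT-related MITEs and 25.6 ± 1.07 for all other elements (SD, n = 8), and none of these differences passed the test (adjusted exact p = 0.906, 0.126 and 0.0637). The difference from MITEs passed without chromosome 3 (2.51, adjusted exact p = 0.0303) and that from all other elements without chromosome 2 (2.30, 0.0303), while the small one from other DNA transposons changed sign without chromosome 1, 4, 7 or 8 (-0.321 at most).

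**Figure D2:**
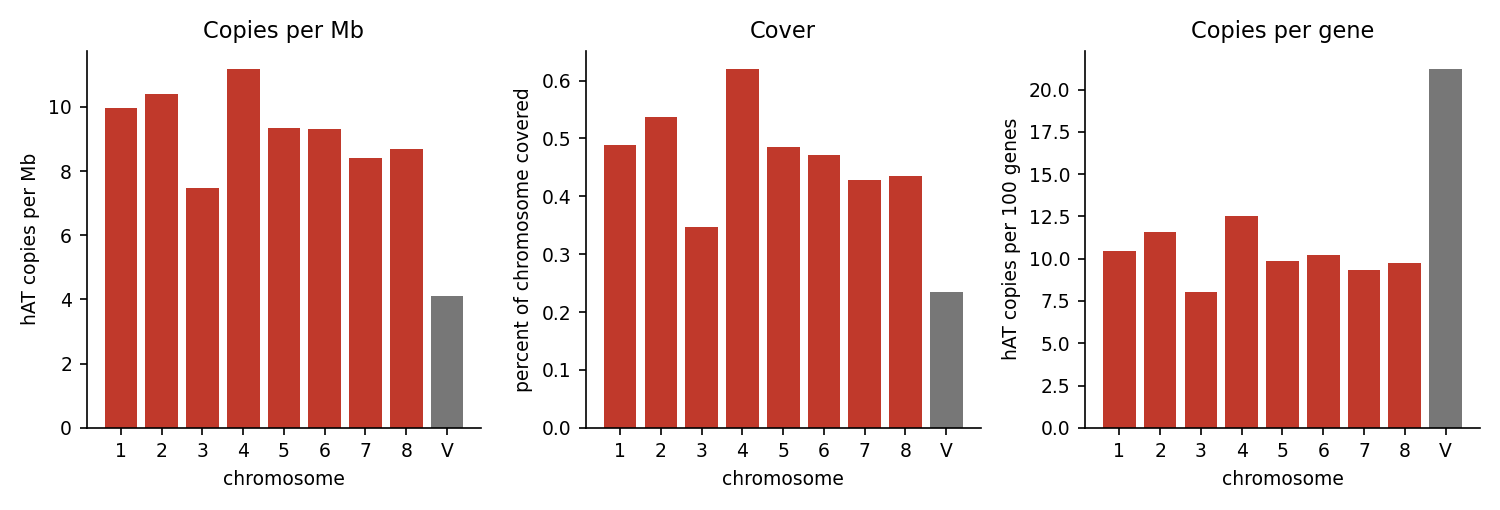
hAT copies per Mb, percent of the chromosome covered and copies per 100 genes, as bars from 0, for autosomes 1 to 8 (red) and V (grey), 1 value per chromosome. V is lowest in the first and second panels, at 4.11 copies per Mb and 0.235%, and highest in the third, at 21.2 copies per 100 genes.

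The autosomes had more hAT copies per Mb than V, and their copies lay nearer to genes. The autosomes averaged 9.35 ± 1.18 copies per Mb and V had 4.11, a difference of 5.24 that was 2.90 with copies of at least 200 bp. hAT held 2.004 ± 0.315% of element bp on the autosomes and 0.380% on V, a chromosome where other elements cover 61.5% of the sequence. Per 100 genes the order was the opposite, with 10.2 ± 1.35 copies on the autosomes (range 8.05 to 12.5) and 21.2 on V, which has 146 genes. The median distance of copies outside genes to the nearest gene averaged 2934 ± 199 bp on the autosomes, against 13304 bp on V. This difference of -10370 bp became -40252 bp when only coding genes were counted and -7003 bp when nearby copies were joined. V lay outside the autosomal range in each of these measures with all copies counted, but with 9 chromosomes the exact permutation test cannot go below 0.111, which is the p that each gave. Other groups also lay far from genes on V, so this was not particular to hAT. Their median distances there were 29293 bp for other DNA transposons, 29525 bp for all other elements and 8760.5 bp for hAT-related MITEs.

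The 31 V copies came from 14 families, and each of these families also has autosomal copies. Structure-based copies were 2.49 ± 1.14% of autosomal copies and 0 of 31 V copies. With 3 divided by the number of copies as a rough upper limit, that count allows a share of up to 9.68%. The limit takes copies as independent, which copies lying end to end may not be. Autosomal copies had a median of 283 ± 19.7 bp and V copies of 376 bp, a difference of -92.9 bp that shrank to -17.2 bp (exact permutation p = 0.667) among copies of at least 200 bp. Copies wholly within introns were 32 of 1960 (1.63%) on the autosomes and 7 of 31 (22.6%) on V. By bp, introns held 1.91 ± 0.871% of autosomal hAT and 18.1% of V hAT. For all other elements the V value was 27.4%, so hAT did not stand apart from the other elements of V in this. On V, 3 copies touched exons, 2 lay within 1 kb downstream of a gene and 0 of 31 lay within 1 kb upstream. A row of 4 TE_00000788 copies, all on the minus strand, ran from base 7080189 to base 7082877 of V, and 5 copies of TE_00000499, TE_00000299 and TE_00000096 lay between bases 4794431 and 4797278.

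On the autosomes, hAT lay mostly outside genes. Of its bp, 95.5% were outside genes, 2.51% in exons and 2.02% in introns, while the autosomal sequence itself was 66.8% outside genes, 20.4% exon and 12.8% intron. Coding sequence held 14191 bp of hAT. Across autosomes the share of hAT bp in exons ran from 0.566% on chromosome 8 to 3.96% on chromosome 4.

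hAT had less of its sequence in genes than the other DNA transposons as one group, which pools the Mutator (DTM), CACTA (DTC), Tc1/Mariner (DTT) and PIF/Harbinger (DTH) superfamilies. By copies, 1842 of 1960 hAT copies (94.0%) lay outside genes, against 6875 of 7748 Mutator copies (88.7%), 3356 of 3700 CACTA copies (90.7%), 708 of 753 Tc1/Mariner copies (94.02%) and 63 of 74 PIF/Harbinger copies (85.1%). Tc1/Mariner was thus outside genes about as often as hAT, most copies of the pooled group were Mutator or CACTA, and single superfamilies were not tested. The share of bp outside genes averaged 95.7 ± 1.87% for hAT and 88.2 ± 1.68% for other DNA transposons, higher on 8 of 8 autosomes (adjusted exact p = 0.0161). Exons held 2.38 ± 1.26% of hAT bp and 7.15 ± 1.26% of other DNA transposon bp, and introns held 1.91 ± 0.871% and 4.62 ± 1.17% (both lower in hAT on 8 of 8 autosomes, adjusted exact p = 0.0161). When only homology-based copies were counted, the exon difference shrank to -2.03 percentage points (adjusted exact p = 0.0234) and that outside genes to 2.84 (0.0439), and the intron difference of -0.812 no longer passed (0.186).

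The gap to the other DNA transposons was wide among structure-based copies. Of the 50 structure-based hAT copies, 39 (78%) lay outside genes, 8 touched an exon and 3 lay in introns alone. Of structure-based Mutator copies 159 of 268 (59.3%) lay outside genes, of CACTA copies 49 of 141 (34.8%), of Tc1/Mariner copies 9 of 23 (39.1%) and of PIF/Harbinger copies 4 of 12 (33.3%). Structure-based hAT-related MITEs were outside genes about as often as hAT or more, with 114 of 134 copies (85.1%), and 11 (8.21%) touched an exon. The hAT value of an autosome rests on 2 to 10 structure-based copies, with 2 on chromosome 8 and 3 each on chromosomes 3 and 6. Averaged over autosomes, 81.5 ± 18.3% of structure-based hAT and 49.8 ± 4.71% of structure-based copies of other DNA transposons lay outside genes, and 14.4 ± 13.8% and 48.7 ± 5.42% touched an exon (both on 8 of 8 autosomes, adjusted exact p = 0.0156 over 8 comparisons added after values had been seen). Structure-based and homology-based hAT did not differ past the threshold, with 81.5 ± 18.3% and 94.6 ± 2.53% outside genes (adjusted exact p = 0.0938, same 8 comparisons).

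**Figure D3:**
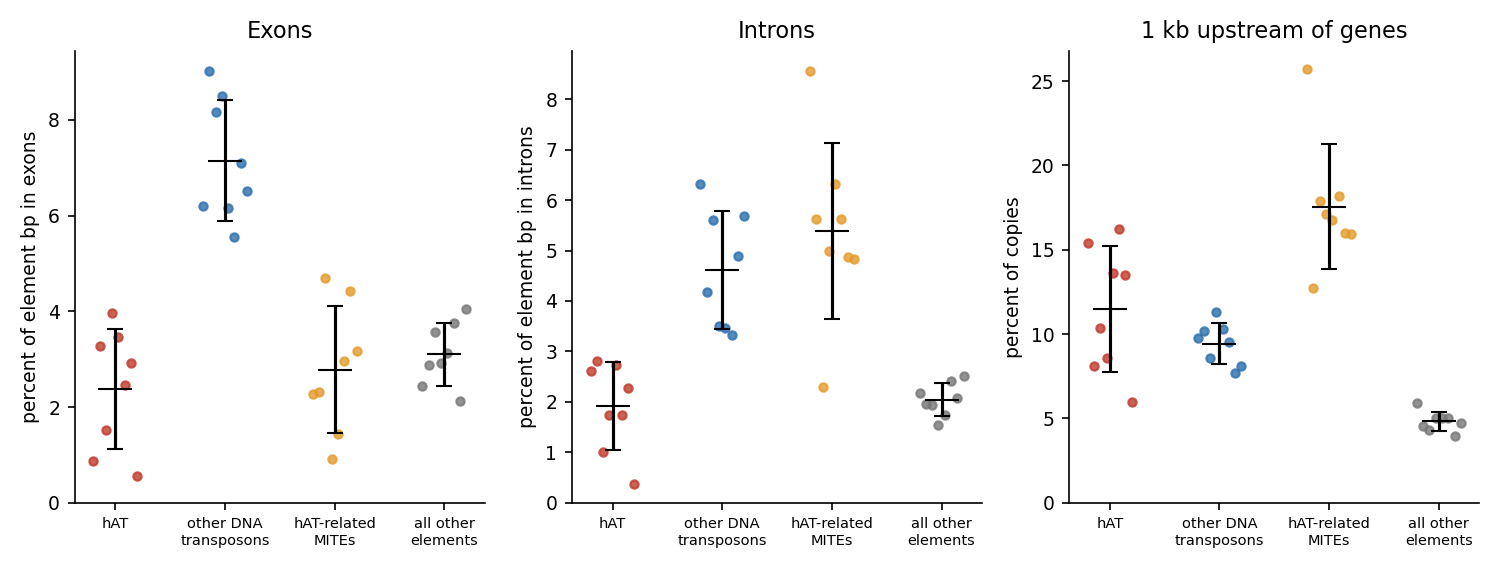
Percent of element bp in exons (left), in introns (middle) and percent of copies with 1 bp or more in the 1 kb upstream of a gene (right), for hAT, other DNA transposons, hAT-related MITEs and all other elements. All other elements include the other DNA transposons and the hAT-related MITEs. Points are the 8 autosomes, and horizontal and vertical lines the mean and SD. In exons hAT averages 2.38% and other DNA transposons 7.15%, with no overlap between their autosomes.

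Against hAT-related MITEs, hAT also had more of its bp outside genes, 95.7 ± 1.87% and 91.8 ± 1.47% (adjusted exact p = 0.0161), and less in introns, 1.91 ± 0.871% and 5.39 ± 1.74% (adjusted exact p = 0.0161). The exon shares of 2.38 ± 1.26% and 2.78 ± 1.33% did not differ past the threshold (adjusted exact p = 0.660), and without chromosome 3 the difference was 0.00234. All other elements as one group had 94.8 ± 0.844% of their bp outside genes, and neither this value nor their exon or intron share differed from that of hAT past the threshold (adjusted exact p = 0.450, 0.287 and 0.783). The intron difference from them was -0.134 percentage points, and 0.151 without chromosome 8. In length the 2 labels meet at a boundary: the shortest structure-based hAT copy had 601 bp and the longest structure-based hAT-related MITE 600 bp, so a difference in length between hAT and these MITEs describes the labels.

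Among copies outside genes, hAT lay closer to genes than all other elements as one group. The median distance to the nearest gene averaged 2934 ± 199 bp for hAT, 3517 ± 293 bp for other DNA transposons, 2115 ± 302 bp for hAT-related MITEs and 5762 ± 705 bp for all other elements. hAT was nearer than all other elements and farther than its MITEs on 8 of 8 autosomes (adjusted exact p = 0.0161 each), and nearer than other DNA transposons on 7 of 8 (adjusted exact p = 0.0285). That last call was lost when any one of chromosomes 2 to 8 was left out, with differences of -525.5 to -603 bp and an adjusted exact p of 0.0510 to 0.0570. The difference with all 8 autosomes was -582.5 bp, and leaving 1 out raises the smallest p that the test allows. Pooled over autosomes, the median was 2926.5 bp for hAT, 3148 bp for Mutator and 3153 bp for PIF/Harbinger. It was 4220 bp for CACTA and 5047 bp for Tc1/Mariner. hAT was thus close to Mutator in distance, and single superfamilies were not tested. In the 50 kb to each side, hAT copies had 9.10 ± 0.271 genes, other DNA transposons 8.53 ± 0.353, hAT-related MITEs 9.52 ± 0.520 and all other elements 7.50 ± 0.454. The difference from all other elements passed (adjusted exact p = 0.0161), that from MITEs did not (0.126), and that from other DNA transposons passed (0.0285) but was lost without any one of the same 7 autosomes (0.0510 to 0.0570) and with 25 kb to each side (0.0605). Here too, leaving 1 autosome out raises the smallest p that the test allows.

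Counted over all bases outside genes, hAT cover had its highest mean at 2 to 5 kb from genes. Bases outside genes were sorted by distance to the nearest gene, and the percent covered by hAT averaged 0.320 ± 0.0821 within 1 kb, 0.662 ± 0.138 at 1 to 2 kb, 1.00 ± 0.231 at 2 to 5 kb, 0.880 ± 0.239 at 5 to 10 kb and 0.438 ± 0.280 beyond 10 kb (SD, n = 8). The 2 to 5 kb zone held 39.7% of hAT bp outside genes. Its cover was above that within 1 kb on 8 of 8 autosomes (adjusted exact p = 0.0156) and above that beyond 10 kb on 7 of 8 (adjusted exact p = 0.0208, both among the 8 added comparisons). The zone was picked with its values known, and the adjustment does not cover that choice. Cover at 5 to 10 kb was not tested against it, and was higher on chromosomes 1, 6 and 7 and lower on the others.

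Other DNA transposons also had their lowest mean cover within 1 kb, 2.27 ± 0.293%, and their highest at 2 to 5 kb, 4.49 ± 0.244%, and they kept 3.98 ± 0.803% beyond 10 kb. All other elements together covered 7.08% of bases within 1 kb of a gene and 72.3% beyond 10 kb, with a higher mean in each zone farther out. They covered 27.1% at 2 to 5 kb and 47.4% at 5 to 10 kb. Bases under other elements count in the zones, and hAT cover of the remaining bases was not computed. The fall of hAT cover beyond 10 kb therefore does not show a preference for nearer zones. Divided by the mean cover outside genes, the 2 to 5 kb zone had 1.48 ± 0.257 for hAT, 1.20 ± 0.0726 for other DNA transposons, 1.09 ± 0.216 for hAT-related MITEs and 0.823 ± 0.0499 for all other elements. The difference from all other elements passed (adjusted exact p = 0.0156), as did that from MITEs (0.0208), and that from other DNA transposons did not (0.0536), though it passed without chromosome 6 (0.333, adjusted exact p = 0.0357). The difference from MITEs no longer passed with copies of at least 200 bp (0.0521) or with homology-based copies only (0.0625).

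**Figure D4:**
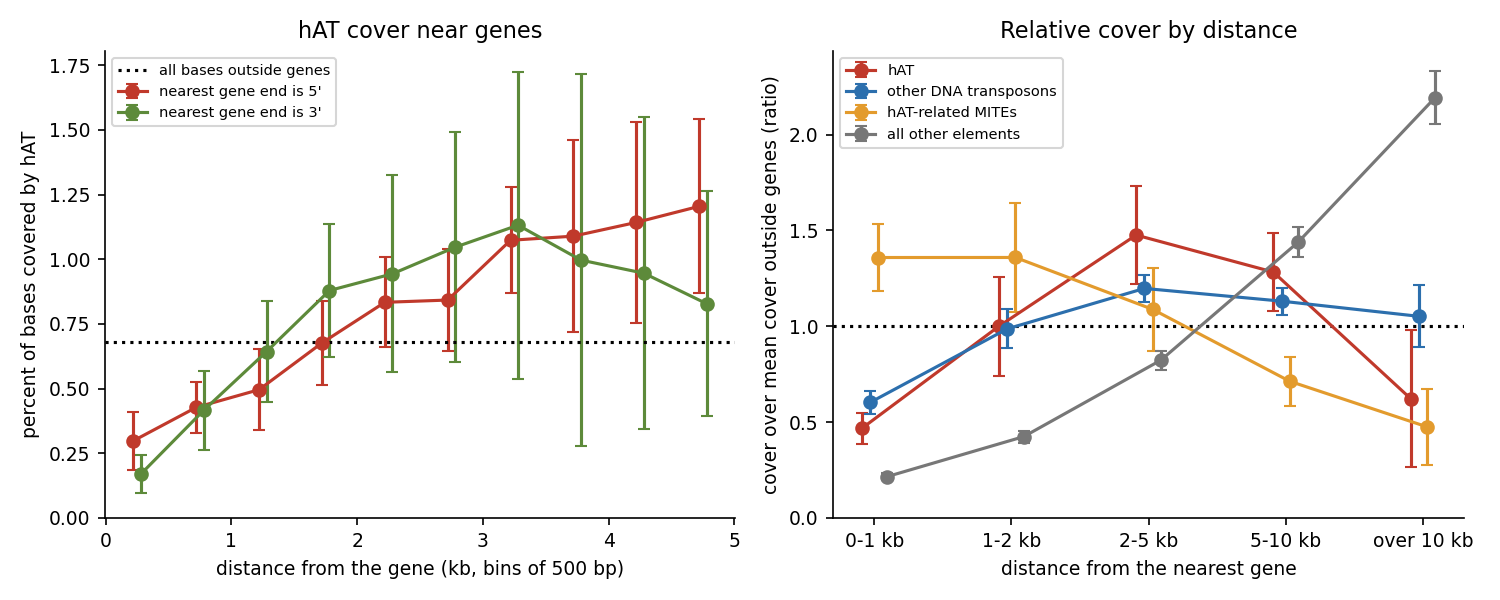
Left, percent of bases covered by hAT in bins of 500 bp out to 5 kb from the nearest gene end, split by whether that end is the gene's 5' or 3' end, with the mean outside genes dotted. Right, cover in 5 distance zones divided by the mean cover outside genes, for hAT, other DNA transposons, hAT-related MITEs and all other elements, which include the 2 groups before them. Points are means and bars SDs over 8 autosomes, and hAT has its highest mean ratio, 1.48, at 2 to 5 kb, with 0.467 within 1 kb and 0.623 beyond 10 kb.

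Close to genes, the first 500 bp held least. hAT covered 0.298 ± 0.111% of the bases 0 to 500 bp from a 5' gene end and 0.169 ± 0.0718% of those 0 to 500 bp from a 3' end. At 4500 to 5000 bp the values were 1.20 ± 0.337% on the 5' side and 0.828 ± 0.436% on the 3' side. The order was the opposite in every bin from 1000 to 3500 bp. At 1500 to 2000 bp, for example, the values were 0.676 ± 0.163% on the 5' side and 0.879 ± 0.256% on the 3' side. Cover on the 5' and 3' sides was not tested. Of the copies outside genes, 1014 had a 5' end as the nearest gene end and 828 a 3' end. The 5' share averaged 55.3 ± 9.52% and ranged from 41.4% on chromosome 8 to 67.6% on chromosome 6. It averaged 56.8 ± 4.73% for hAT-related MITEs and 49.0 ± 2.66% for other DNA transposons, and was not tested. In each bin of 500 bp out to 5 kb, more bases lay nearest a 5' end than a 3' end.

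The 1 kb upstream of genes was reached by 225 autosomal hAT copies (11.5%) and the 1 kb downstream by 168 (8.57%). Averaged over autosomes the shares were 11.5 ± 3.74% upstream and 8.56 ± 1.25% downstream, a difference that did not pass (adjusted exact p = 0.172). The upstream share was 9.44 ± 1.23% for other DNA transposons (adjusted exact p against hAT = 0.223), 17.5 ± 3.71% for hAT-related MITEs (0.0161) and 4.82 ± 0.587% for all other elements (0.0161), and both passing differences held on 8 of 8 autosomes. With the MITEs counted as hAT, the excess over other DNA transposons was 4.35 percentage points and passed (adjusted exact p = 0.0368). Among hAT the upstream share ran from 5.95% on chromosome 8 to 16.2% on chromosome 6.

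Families contributed unevenly to the upstream copies. TE_00001030 had 12 of 37 copies (32.4%) there and TE_00001177 had 30 of 102 (29.4%), followed by TE_00000686 with 28 of 122 (23.0%), TE_00000499 with 10 of 46 (21.7%) and TE_00000174 with 14 of 70 (20%). TE_00001226, the largest family, had 35 of 222 (15.8%). TE_00000117 had 4 of 176 (2.27%) and TE_00000299 had 1 of 85 (1.18%), although both are among the larger families. TE_00001177 also differed between sides, with 30 copies upstream and 8 downstream, and TE_00000686 had 28 and 15, while TE_00001226 had 35 and 31. Across the 26 families, shorter median length went with a higher upstream share (Pearson r = -0.464, Spearman rho = -0.447), a description over families that share one genome.

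**Figure D5:**
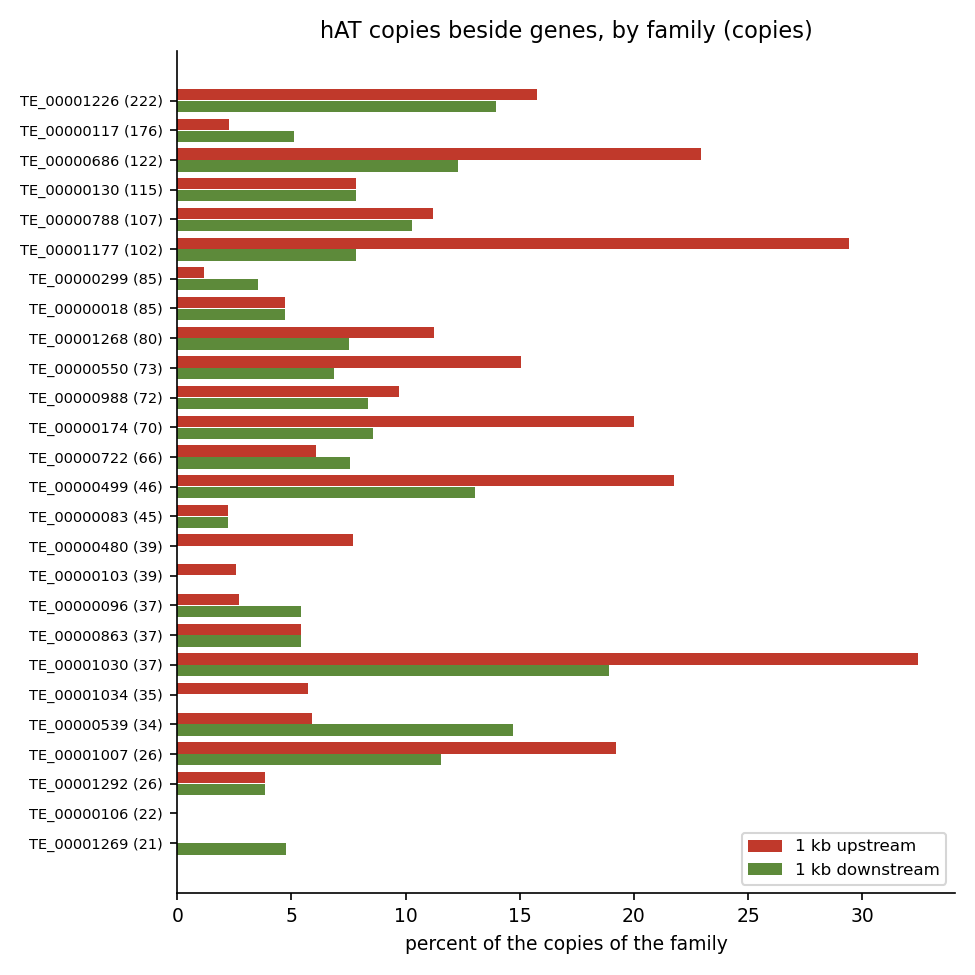
Percent of the copies of each of the 26 larger hAT families with 1 bp or more in the 1 kb upstream (red) or downstream (green) of a gene, with the number of copies in brackets. TE_00001030 at 32.4% and TE_00001177 at 29.4% have the longest upstream bars, and TE_00000117 and TE_00000299 lie at 2.27% and 1.18%.

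Upstream copies were not oriented alike in all families. Counting each pair of a copy with a stated strand and a gene, TE_00000686 had 4 of 29 pairs on the same strand and TE_00000788 had 1 of 11, whereas TE_00000174 had 12 of 14. TE_00001177 with 18 of 34 and TE_00001226 with 21 of 37 were mixed. TE_00000686, TE_00000788 and TE_00000174 lay upstream of 20, 7 and 12 genes, so a gene can enter more than 1 pair and pairs are not independent. For TE_00000174 the median distance to the gene start was 0 bp, so many of its pairs were copies that reach the gene itself. Among copies that overlap genes, 67 of 107 (62.6%) lay on the strand of the gene. The share averaged 66.6 ± 18.2% over autosomes, which did not pass against 50% (adjusted exact p = 0.0538), and it ran from 46.7% on chromosome 6 to 100% of 4 copies on chromosome 8. With copies of at least 200 bp the excess over 50% was 20.4 percentage points and passed (adjusted exact p = 0.0255).

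At the level of genes, 78 of 19105 autosomal genes (0.408%) had hAT in an exon, and 44 of them had it in coding sequence. All 78 were coding genes, as were 18134 of the 19105 autosomal genes, and they made up 0.430% of the coding genes. Of 971 noncoding genes 0 had exonic hAT, which allows up to 0.309% by the same rough limit as for V, with genes taken as independent. Coding and noncoding genes were not tested against each other, and their exon lengths were not compared. A further count found 57 genes with hAT in an intron, 190 (0.995%) with hAT in the 1 kb upstream and 152 (0.796%) in the 1 kb downstream, with 4 genes on both lists of flanks. The median gene with exonic hAT had 287 bp of it.

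The gene with the most exonic hAT was Mp2g20040, with 1216 bp from a single structure-based copy that has no library family and covers 43.5% of the coding sequence. Mp5g07560 (MpPP1I3) had 1133 exonic bp from the TE_00000608 copy of 4636 bp, the longest of all, with only 24 bp of it in coding sequence. Mp5g12440 had all of its 981 exonic bp and all of its 1500 intronic bp within 1 homology-based TE_00000766 copy. Mp7g15550, Mp5g18930, Mp2g14520, Mp2g19640, Mp4g03970, Mp4g17540 and Mp6g04030 followed with 936 to 662 bp. The gene just below them had 649 bp.

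In 5 genes hAT made up 50% or more of the exonic bp. Mp5g12440 and Mp3g14500 were covered completely, Mp3g14500 being a single exon of 377 bp inside the structure-based TE_00000674 copy of 976 bp at bases 14140892 to 14141867 of chromosome 3. Mp5g18930 had 64.4%, Mp6g08630 59.2% and Mp4g17540 55.7%. These gene models lie in or on a transposon, and whether they code for a protein of the transposon was not examined.

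Introns took up whole long copies in a few genes. Mp1g00140 had 2516 intronic and 649 exonic bp, together the entire TE_00000871 copy of 3165 bp. The 2448 bp in Mp2g14320 are the single structure-based copy of TE_00001226, the largest family, which thus lies within an intron at bases 15079320 to 15081767 of chromosome 2. Mp5g12440 came next with 1500 bp, then Mp7g06540 with 940 bp of TE_00000499 and Mp5g12690 with 803 bp, a whole structure-based TE_00000677 copy. Mp7g11270 had 640 bp. Mp2g14010 had 602 bp, the one structure-based TE_00001268 copy, and its symbol MpGH3B places it in the GH3 family, whose Arabidopsis members join amino acids to plant hormones. Mp2g08490, Mp5g07560 and Mp4g17540 completed the 10 with 582, 480 and 467 bp.

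Upstream sequence was filled entirely in 3 genes, Mp1g17350, Mp2g08500 and Mp5g12630, with 1000 bp of hAT in the 1 kb before each. Mp1g02760 had 937 bp, Mp7g17030 911 bp and Mp2g14510 902 bp. Mp2g14100 had 854 bp from a structure-based TE_00000788 copy of 2757 bp, and Mp4g11440, Mp4g04590 and Mp4g18190 had 845, 822 and 805 bp. Of these 10 genes, 6 had TE_00000174 upstream and 2 had TE_00001007, and in all 8 the family continued into the exons. The upstream copy of Mp1g18410, by its symbol MpSQE the gene for squalene epoxidase, an enzyme of sterol synthesis, was the shortest structure-based copy of all, 601 bp long and 77 bp from the gene. It was named here after its value was seen.

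Exonic hAT came from many families, and those described next were chosen after their values were seen. TE_00000722 and TE_00000174 lay in the exons of the most genes, 15 and 11 of the 78, so most genes with exonic hAT had it from other families. The 15 genes with TE_00000722 were on 6 autosomes, 8 of them on chromosome 4. In these genes hAT made up 8.21% to 33.6% of exonic bp, and in 11 of them it reached coding sequence. Mp4g04770 and Mp4g04780 both had 318 bp, and the neighbouring Mp4g04980, Mp4g04990, Mp4g05000 and Mp4g05010 had 291, 315, 294 and 294 bp. Whether these neighbouring genes are copies of one another was not examined, so the 15 genes may not be separate observations.

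TE_00000174 lay in the exons of 11 genes on 5 autosomes, in 10 of them in coding sequence. In 6 of the 11, elements of all kinds covered at least 90% of the exonic bp. The partner was TE_00000310, a repeat family of unknown class with 57 autosomal copies, which was present in the exons of 7 of the 11 genes. Of the 70 TE_00000174 copies 30 (42.9%) had a TE_00000310 copy within 1 kb, against 0 of the other 1890 hAT copies. In Mp1g17350, for example, hAT made up 341 bp and all elements together 795 of 795 exonic bp.

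TE_00001007 was the one larger family restricted to a single autosome. Its 26 copies all lay on chromosome 2, in 6 groups separated by more than 100 kb, spread over 14.6 Mb. The fullest group had 10 copies in 19.1 kb, from base 8866621 to base 8885726, with both structure-based copies and the genes Mp2g08490 and Mp2g08500. A second group of 6 copies in 24.0 kb held Mp2g14510 and Mp2g14520. Exons of these 4 genes contained TE_00001007 sequence, and in each it reached coding sequence. With 18 of 26 copies (69.2%) outside genes, the family had the lowest such share of the 26 larger families, whose median was 97.2%. Of the smaller families with several copies, TE_00000915 had its 6 copies on chromosome 1 alone.

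hAT was seldom nested in other elements as annotated. Of the 1960 copies, 182 (9.29%) overlapped another kind of element by 1 bp or more, 65 times a hAT-related MITE and 43 times a Mutator element. No copy lay wholly inside an element of another kind, and 6 had the same other family within 10 bp on both sides. hAT copies inside other hAT copies were not counted here, and the overlapping TE_00001007 pair described above is such a case. Of the 182 copies, 180 were homology-based, close to the share among all hAT copies, 1910 of 1960. The annotation may have resolved nested copies into separate pieces, which was not examined.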

How the data were processed

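Both deposited files are GTF annotations named for MpTak1 v5.1 revision 2, and the values used are first and last base positions in bp, counted from 1, as the authors deposited them. The score column, deposited in the element file, held a dot in every entry, so no similarity to a family was read. Trim Galore and STAR appear in the submitters' processing notes with no version, and EDTA is named in the element file. Libraries were 3 of Mpmet-3 and 3 of Tak-1 wild type, and none entered a test.

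A gene was the span of its exons, and an exonic base was counted as exon before intron before outside. Overlapping copies of a group were merged before bp were counted. The identifier of a copy told its kind, TE_struc for structure-based and TE_homo for homology-based. A chromosome ended at its last feature. Genes near a copy were counted by their midpoint.

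Groups were compared with exact 2-sided sign-flip permutation over 8 autosomes and Benjamini-Hochberg adjustment (threshold 0.05), tried on simulated copies first. Members and lists were chosen with earlier results of these data known. Named were the 12 families with most copies, those with most structure-based copies, the 5 longest copies of each kind, and the 10 genes with most exonic, intronic and upstream hAT bp. Symbols came from a table for MpTak2 v7.1, paired by locus number with gene lengths within 5%, which gave 2860 symbols among 17624 pairs. The tools were scipy 1.17.1, pandas 2.3.3, numpy 2.4.6 and matplotlib 3.10.9 under Python 3.11.15.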

Additional observations from a re-analysis of the deposited data

How the results depend on the processing

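The 46 tested results, of which 23 passed, were recomputed with copies of at least 200 bp, coding genes alone, other flanks and windows, hAT-related MITEs counted as hAT, homology-based copies alone, nearby copies joined, mean lengths, copies per gene, and each autosome left out. Of 231 values that kept all autosomes, 214 had the same direction and side of the threshold. The 46 include the comparisons with V, whose exact permutation p cannot go below 0.111. For these only the direction could change, here and with an autosome left out, so their agreement in side was fixed in advance. The cause of the other changes was not tested. No paired analysis was possible because no column of the files holds a value of a library.

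The length difference from other DNA transposons was -101 bp with copies of at least 200 bp, -24.6 bp with MITEs as hAT, 22.7 bp with homology-based copies and 31.0 bp with joined copies, all 4 past the threshold, while the 16.1 bp given above did not pass. The position difference from other DNA transposons turned to -1.39 and -0.458 percentage points under the first and second of these settings. With copies of at least 200 bp the excess on the gene strand was 20.4 percentage points and passed, and the relative cover at 2 to 5 kb exceeded that of MITEs by 0.414 without passing, as it did by 0.394 with homology-based copies. With homology-based copies the intron difference from other DNA transposons, -0.812 percentage points, no longer passed. Genes near a copy exceeded other DNA transposons by 0.239 with 25 kb to each side, which did not pass, and differed from MITEs by -0.403 with 100 kb, which did. With MITEs as hAT, the upstream excess over other DNA transposons was 4.35 percentage points for all copies and 5.69 for copies outside genes, both past the threshold. In the same setting the intron difference from all other elements was 0.594, and the structure-based share outside genes minus the homology-based share was -9.56 and passed. Per 100 genes, the autosomes minus V came to -11.02 copies.

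With each autosome left out in turn, 345 of 368 values had the same direction and side. The position difference ranged from -0.321 to 0.708 against other DNA transposons, from 1.17 to 2.51 against MITEs and from 1.40 to 2.30 against all other elements. The distance to a gene ranged from -675.5 to -525.5 bp and genes nearby from 0.503 to 0.683 against other DNA transposons. The exon difference from MITEs ranged from -0.888 to 0.00234 and the intron difference from all other elements from -0.293 to 0.151. Relative cover at 2 to 5 kb exceeded that of other DNA transposons by 0.236 to 0.333.

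Every copy count rests on the annotation's own calls, and short homology-based copies (34.9% of copies under 200 bp) depend on its similarity limit, which the sources used here do not give.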
